A study of Mus musculus with 12 samples.

Results

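The lysosomal genes examined here were a list of 46 mouse genes given by symbol: 8 genes of the lysosomal membrane, 7 proteases, 11 glycan hydrolases, 9 lipid hydrolases and other lumenal proteins, the transcription factors Tfeb and Tfe3, and 9 subunits and accessory proteins of the V-ATPase. All 46 symbols matched 1 Ensembl gene each among the 49548 genes counted in every library, and all 46 passed the filter on low counts. RNA labelled as lumbar spinal cord came from untreated mice aged 30 days, 8 of the MFN2 group and 4 of the WT group. The labels call the MFN2 genotype CMT2A, after the peripheral neuropathy it models, and name the L51Ugfm/J line of Tg(Eno2-MFN2*R94Q) on a B6;D2 background, which carries mutant human MFN2 under the Eno2 promoter, active in neurons. The labels give the WT mice as C57BL/6, whereas the study's methods describe littermates, so that a difference in background strain cannot be told apart from the transgene. The study saw no overt neuromuscular phenotype in these mice. The human transgene was not analysed here.

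Lysosomes break down proteins, glycans and lipids delivered by endocytosis and autophagy. The V-ATPase pumps protons into the lumen so that the acid hydrolases can work, and heavily glycosylated membrane proteins such as LAMP1 and LAMP2 line the inner face. TFEB and TFE3 are basic helix-loop-helix factors that bind E-box sequences near many lysosomal genes and raise their transcription when they enter the nucleus. Lysosomal genes are expressed in every cell type of the spinal cord, and many of the hydrolases are abundant in microglia. Inherited loss of many of these enzymes causes storage diseases with neurodegeneration.

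Because TFEB and TFE3 act through E-boxes, the 300 bases around the start of each gene, 250 before and 50 after, were searched in RefSeq sequence of build GRCm38.p6, in which 41 of the 46 genes were found, all but Asah1, Atp6v1b2, Atp6v1h, Ctsb and Npc1, and 6 of them had more than 1 start. The core letters CACGTG, which read the same on both strands, were present for 15 of the 41 genes (36.6%), and for 8.09% of the 27025 genes in the table. The longer run TCACGTG, or its reverse complement CACGTGA, was present for 13 genes (31.7%) against 4.29% of all genes, the palindrome TCACGTGA for 7 genes (17.1%) against 1.12%, and the CLEAR element, which extends that palindrome by 1 base on each side, for 1 gene, Cln3 (2.4%), against 0.37%. Each longer motif contains the shorter ones, so the counts are nested. The windows of Lamp1 (chr8:13159069-13159160, plus strand), Glb1 (chr9:114400999-114401065, plus strand), Arsa (chr15:89477426-89477471, minus strand) and Atp6v1a (chr16:44139354-44139421, minus strand) are shown as examples that carry the motif upstream of the RefSeq start and outside annotated exons. Mcoln1 and Gaa had such windows too, which are not shown, and neither gene passed in the second run. Lamp1 also encodes the lysosomal marker measured by Western blot in the study. Glb1 and Arsa were lower in MFN2 libraries 72 to 76 than in WT, though not over all 8 MFN2 libraries, and Atp6v1a differed in neither. The window of Atp6v1a lies within the GENCODE bounds of the gene, which start further upstream. Capitals mark TCACGTG or CACGTGA.
Lamp1: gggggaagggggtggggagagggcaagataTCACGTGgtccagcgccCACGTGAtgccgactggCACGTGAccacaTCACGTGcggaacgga
Glb1: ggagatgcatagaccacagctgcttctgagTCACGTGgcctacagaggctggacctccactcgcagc
Arsa: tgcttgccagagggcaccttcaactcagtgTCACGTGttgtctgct
Atp6v1a: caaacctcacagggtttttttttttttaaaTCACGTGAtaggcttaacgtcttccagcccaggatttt
The Lamp1 window held 4 copies of the core, the last ending 9 bases before the start, and the other windows held 1 copy each. A match of letters describes the sequence only and says nothing of binding.

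Total counts ranged from 19359454 to 26738930 per library in MFN2 mice and from 19453238 to 23564568 in WT mice, and the 46 genes together took between 0.517% and 0.591% of them. The libraries carry the numbers 41 to 47 and 72 to 76. The first run of numbers held 3 MFN2 libraries (41 to 43) and the 4 WT libraries (44 to 47), and the second held 5 MFN2 libraries (72 to 76) with no WT library, for which genotype and run therefore cannot be told apart. Library 43 stood apart from every other library by its markers. Summed over 10 forebrain neuron markers it had 2856 CPM (read counts scaled to library size with TMM factors), where the other 11 libraries had 26.5 to 57.5 CPM, and over 6 oligodendrocyte markers it had 8133 CPM, where the others had 21100 to 33950 CPM. Over 6 caudal cord markers, Hox genes of which Hoxa9 was the most abundant, it had 21.1 CPM, where the others had 92.1 to 151 CPM. The markers of library 43 thus go against its labelled tissue, and each value over all 8 MFN2 libraries or over 41 to 43 rests on the label. Library 73 had the highest sum over 5 blood markers, 333 CPM, where the others had 68.1 to 202 CPM. Xist, transcribed from the inactive X chromosome of females, was above 10 CPM in 3 of 4 WT libraries, 1 of the 3 first-run MFN2 libraries and 5 of 5 second-run MFN2 libraries. Of the 46 genes, 6 lie on the X chromosome (Lamp2, Gla, Ids, Tfe3, Atp6ap1 and Atp6ap2).

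In the WT lumbar cord the lysosomal genes spanned more than 2 orders of magnitude. Scaled to the summed length of annotated exons (RPKM, the CPM per kilobase), the median gene had a level of 13.2 RPKM. Psap, which encodes the precursor of the saposins that help hydrolases reach sphingolipids, was the most abundant at 327 ± 17.97 RPKM (SD, n = 4), followed by Lamp1 at 152 ± 14.6 RPKM. The next places were taken by V-ATPase subunits of both sectors, with Atp6v1b2 of the catalytic V1 sector at 71.6 ± 6.13 RPKM and Atp6v0d1 of the membrane V0 sector at 64.9 ± 3.94 RPKM, whose levels differed by little more than the larger SD. Lamp2, the companion of Lamp1, was at 10.98 ± 0.579 RPKM, and the hydrolases Glb1 and Idua were at 3.63 ± 0.506 and 2.50 ± 0.130 RPKM. Tfeb was at 4.63 ± 0.594 RPKM and Tfe3 at 2.48 ± 0.0841 RPKM. The lowest member was Cln3, at 0.925 ± 0.0971 RPKM. If reads came mainly from 3′ ends, as a heading of the study's methods has it, levels per length are too low for long transcripts. The text under that heading speaks of poly(A) mRNA sequencing and names a total RNA kit, and which holds was not settled here. Psap, Atp6v1b2, Atp6v0d1 and Cln3 here, and Scarb2, Asah1, Smpd1, Ids, Gla and Lipa further on, were named after their values were seen. The coefficient of variation among the 4 WT libraries ranged from 1.58% to 20.6%, with a median of 6.06%.

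**Figure D1:**
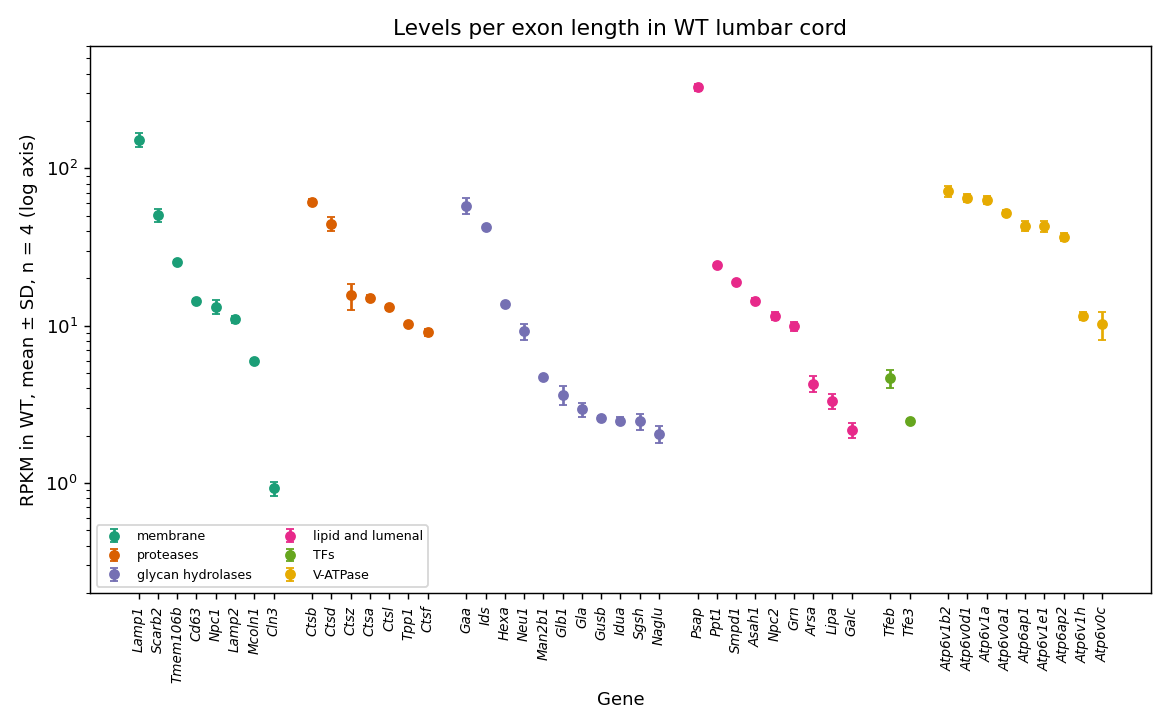
Levels of the 46 lysosomal genes in the 4 WT libraries, in RPKM on a log axis, grouped by role; points are means and bars are SD. Psap (327 RPKM) and Lamp1 (152 RPKM) lie highest, and Cln3 (0.925 RPKM) lowest.

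Whether lysosomal transcripts differ with the MFN2 genotype was asked first with all 8 MFN2 libraries. In edgeR's quasi-likelihood test 0 of 46 genes passed a false discovery rate (FDR, Benjamini-Hochberg) of 0.05, and 0 of all 15942 genes tested (0%). At an unadjusted p under 0.05 there were 10 of 46 lysosomal genes, all of them lower in MFN2 mice, where 7.57% of all genes were lower and 7.4% higher at that p. The log2 fold change was below 0 for 36 of the 46, with a median of -0.14, where the median over all genes tested was 0.0038. The V-ATPase genes were the exception among the roles, with a median of 0.0025 and 4 of 9 below 0. With DESeq2, Glb1 and Idua passed the threshold among 200 genes (1.25%), and without library 43 Idua alone passed in edgeR, among 19 genes (0.119%). Without libraries 43 and 73, 0 of 46 passed, and 4 of all genes tested (0.0251%).

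Idua and Glb1 were also the members whose levels in all 8 MFN2 libraries lay below all 4 WT libraries, as did 1.07% of all genes tested, and 0 of the 46 lay above them, as did 0.979% of all genes. Idua (ENSMUSG00000033540, chr5:108660331-108684557, plus strand) encodes alpha-L-iduronidase, which trims heparan and dermatan sulfate. Its level was 9.997, 10.4, 10.3 and 11.3 CPM in the WT libraries, 7.25, 7.87 and 8.73 CPM in MFN2 libraries 41 to 43, and 5.67, 6.02, 6.32, 7.66 and 5.35 CPM in MFN2 libraries 72 to 76. The highest MFN2 value was that of library 43. The log2 fold change over all 8 was -0.61 ± 0.13 (SE), with an FDR of 0.254. Glb1 (ENSMUSG00000045594, chr9:114401076-114474898, plus strand) encodes the lysosomal beta-galactosidase that acts on GM1 ganglioside and keratan sulfate. Its level was 10.3, 10.8, 13.1 and 9.55 CPM in WT, 7.44, 8.44 and 8.45 CPM in MFN2 41 to 43, and 6.72, 7.02, 7.93, 8.09 and 9.43 CPM in MFN2 72 to 76. The gap between the genotypes was narrow, from 9.43 to 9.55 CPM, and the log2 fold change was -0.46 ± 0.11 (SE), with an FDR of 0.254. Both genes share exon bases with neighbours: Idua with Dgkq and Slc26a1 on the opposite strand, and Glb1 with Tmppe on its own strand. Those neighbours, looked up after the values were seen, had log2 fold changes of 0.05, -0.05 and -0.08, and none passed the threshold.

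The count of genes past the threshold depended on which MFN2 libraries were compared with WT. MFN2 libraries 72 to 76 against the 4 WT libraries gave 21 of 46 lysosomal genes past an FDR of 0.05, 20 lower and 1 higher in MFN2 mice, where 23.5% of all genes tested passed, 12.2% lower and 11.4% higher. At an unadjusted p under 0.05 there were 27 of 46, 25 lower and 2 higher, where 37.5% of all genes did so. The median log2 fold change of the 46 was -0.17, and that of all genes was 0.0045. Together the 46 genes had 5745 ± 215 CPM (SD, n = 4) in WT and 5282 ± 169 CPM (SD, n = 5) in the second run. As a share of total counts, without TMM factors, they took 0.5507% to 0.575% in WT and 0.5172% to 0.5616% in the second run, which overlap. In 14 of the 46 genes all 5 second-run libraries lay below every WT library, where 10.2% of all genes did so, and in 1 they lay above, as in 9.43% of all genes. The lower genes came from each role: 4 of 8 membrane genes, 3 of 7 proteases, 3 of 11 glycan hydrolases, 6 of 9 lipid and lumenal genes, 1 of 2 transcription factors and 3 of 9 V-ATPase genes. When only library size was used for scaling, all genes shifted up by a median of 0.07, the calls over all genes moved from 1812 higher and 1941 lower to 2823 higher and 1346 lower, and 18 lysosomal genes passed, 16 lower and 2 higher. Without library 73 the second run gave 18 of 46, 17 lower and 1 higher, where 19.5% of all genes passed. A single fit on all 12 libraries in 3 groups gave 8 lower members where 7.68% of all genes passed. Lamp2, Cd63, Scarb2, Npc1, Galc, Asah1, Npc2 and Atp6v0c passed in 16 of 17 alternatives and were lost in that fit.

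**Figure D2:**
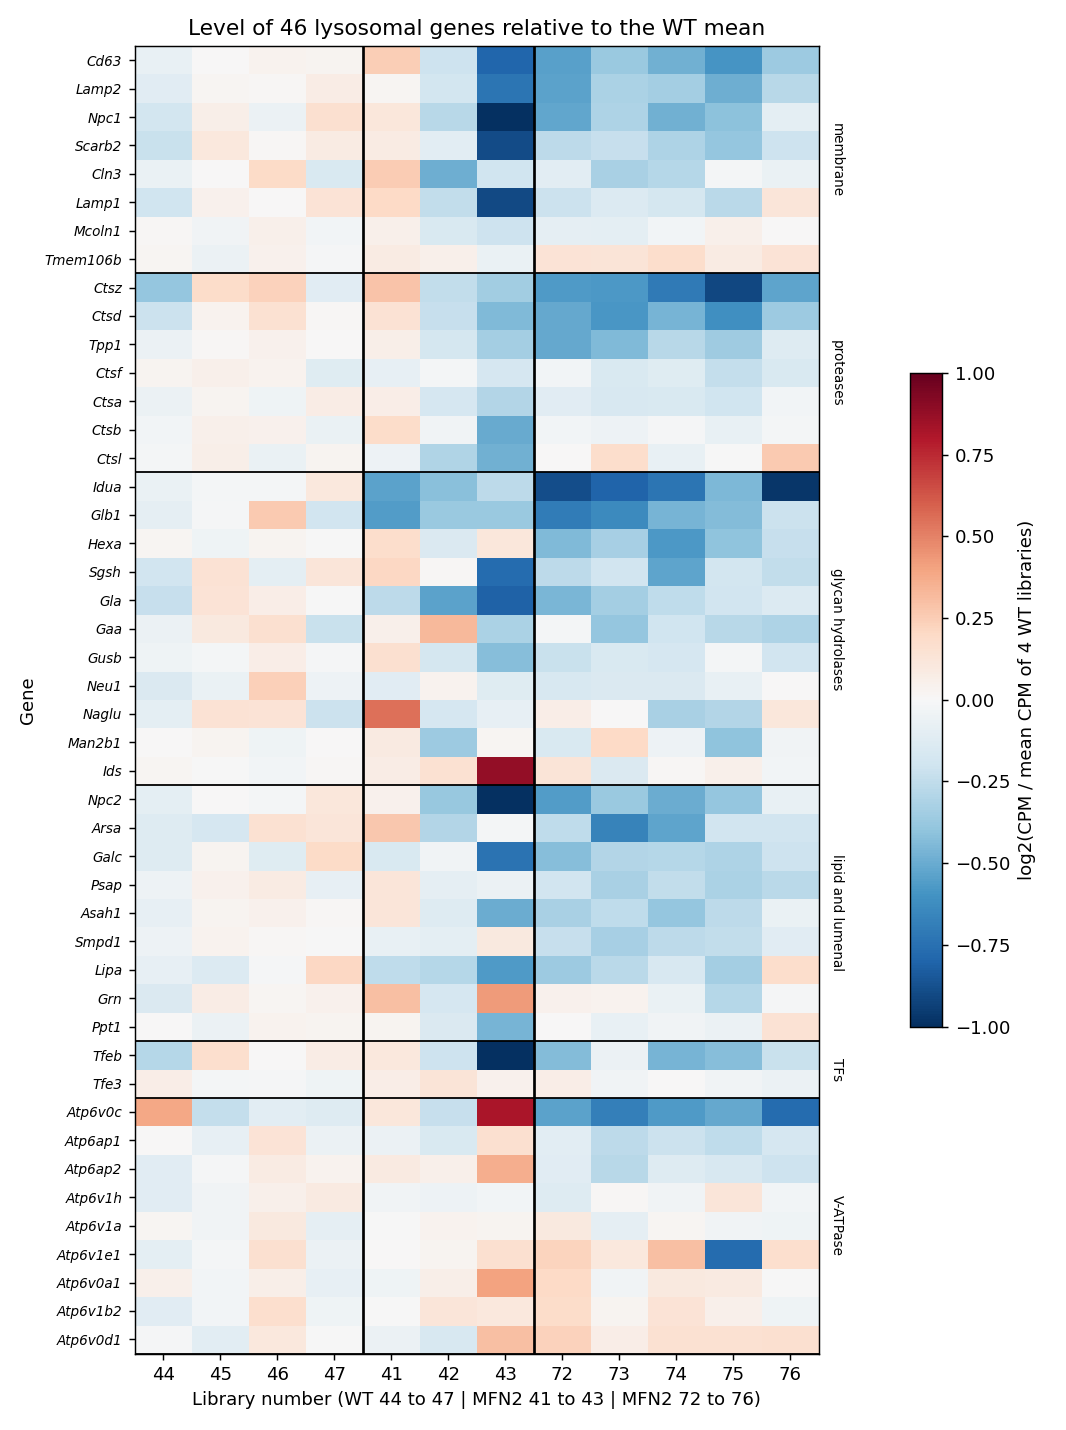
Level of each lysosomal gene (rows, grouped by role) in each library (columns), as log2 of its CPM over the mean of the 4 WT libraries; blue is lower and red higher, and the colour scale ends at -1 and 1. The blue cells of libraries 72 to 76 run through many membrane, protease, glycan and lipid genes and few V-ATPase genes, while library 43 shows both the deepest blue cells and the deepest red ones.

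Among the membrane genes, Lamp1 (ENSMUSG00000031447, chr8:13159161-13175338, plus strand) did not pass. Its protein was examined by Western blot in the human motor neurons of the study. The level of the Lamp1 transcript was 354, 418, 407 and 447 CPM in WT, 468, 344 and 218 CPM in MFN2 41 to 43, and 351, 370, 360, 338 and 441 CPM in MFN2 72 to 76. The groups overlapped, and the log2 fold change was -0.17 ± 0.15 (SE, FDR 0.586) over all 8 and -0.13 ± 0.08 (SE, FDR 0.291) for the second run. Over all 8 it was -0.092 without library 43, and in the second run it ranged from -0.19 (without library 76 or 44) to -0.08 (without 47) when 1 library was left out. Lamp2, the other major glycoprotein of the lysosomal membrane and a receptor of chaperone-mediated autophagy, was at 97.1, 106, 106 and 110 CPM in WT, 106, 92.5 and 63.1 CPM in MFN2 41 to 43, and 72.3, 84.3, 82.7, 74.7 and 86.6 CPM in MFN2 72 to 76. All 5 second-run libraries were below every WT library, with a log2 fold change of -0.39 ± 0.06 (SE, FDR 0.00133).

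Cd63, a tetraspanin of late endosomes and lysosomes, had the lowest FDR of all 46 genes. It was at 50.2, 53.2, 54.3 and 54.0 CPM in WT and at 36.4, 40.8, 37.9, 35.2 and 41.2 CPM in MFN2 72 to 76, a log2 fold change of -0.46 ± 0.06 (SE, FDR 0.000388). Libraries 41 to 43 did not move together, at 62.8, 45.7 and 30.5 CPM. Npc1, which exports cholesterol from lysosomes, was at 132, 156, 144 and 167 CPM in WT, 162, 124 and 74.4 CPM in MFN2 41 to 43, and 105, 121, 107, 113 and 140 CPM in MFN2 72 to 76. In the second run 4 of the 5 libraries were below every WT value, and the log2 fold change was -0.35 ± 0.09 (SE, FDR 0.0138). Scarb2, the receptor that carries glucocerebrosidase to lysosomes, was also among the lower genes. Tmem106b, a lysosomal membrane protein that binds a V-ATPase subunit, was the single member that was higher, at 178, 169, 180 and 174 CPM in WT, 186, 181 and 167 CPM in MFN2 41 to 43, and 192, 191, 198, 186 and 192 CPM in MFN2 72 to 76. The log2 fold change of the second run was 0.14 ± 0.04 (SE, FDR 0.0391). All 5 libraries exceeded every WT library, but the call held in 6 of 17 alternative fits.

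**Figure D3:**
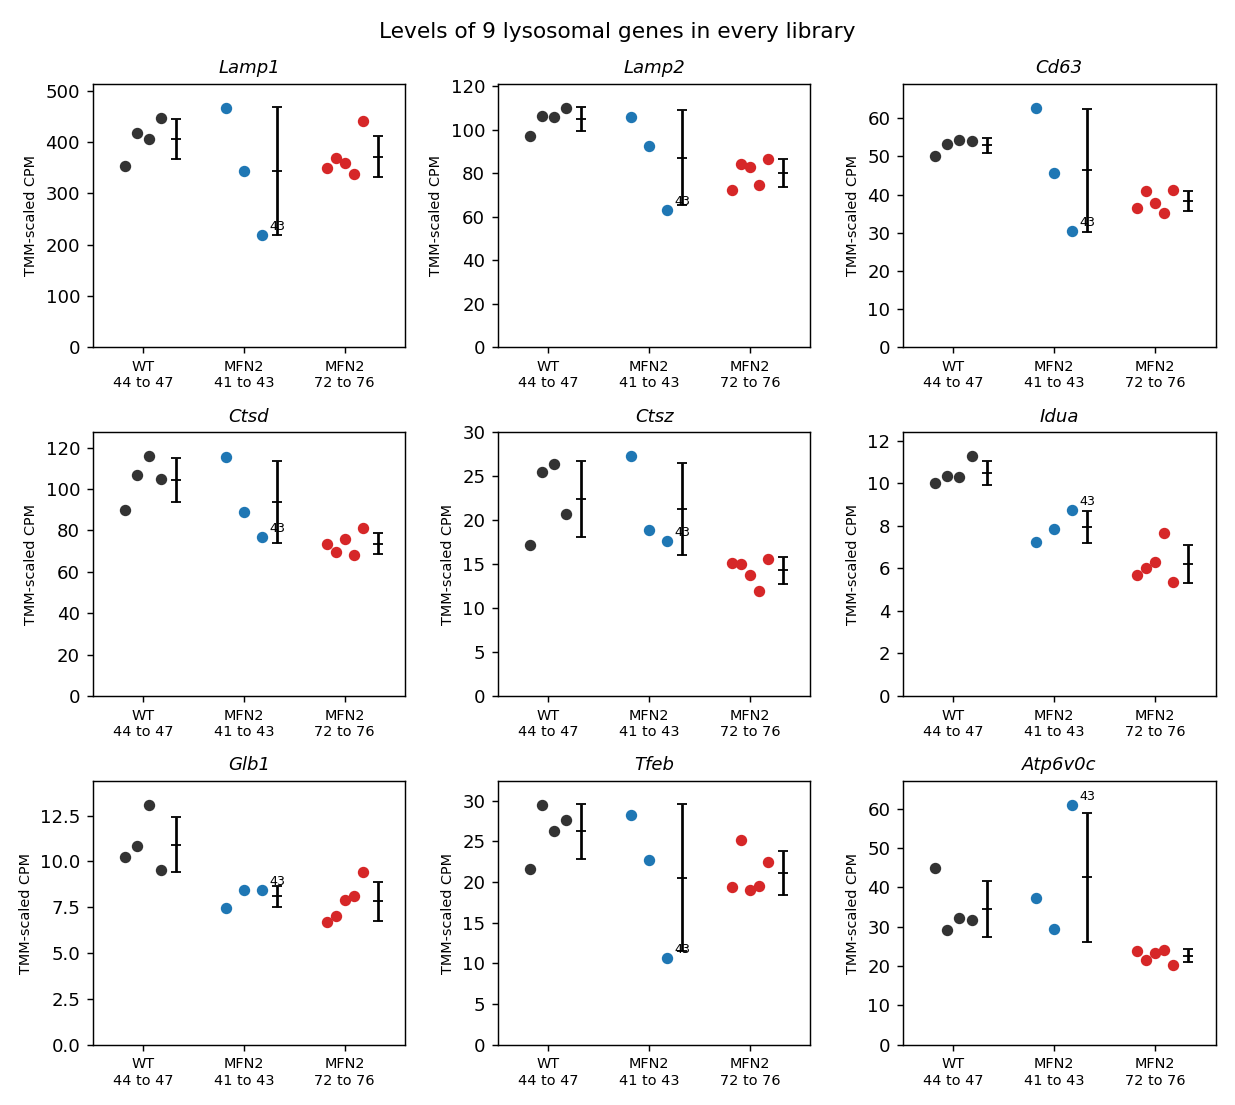
Levels of 9 lysosomal genes in CPM in every library, with WT libraries in dark grey, MFN2 41 to 43 in blue and MFN2 72 to 76 in red; the bar beside each group is its mean ± SD, and library 43 is marked. For Lamp2, Cd63, Ctsd, Ctsz, Idua, Glb1 and Atp6v0c the red points lie below every dark grey point, while for Lamp1 and Tfeb they overlap.

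Of the 7 proteases, Ctsd, Ctsz and Tpp1 were lower in the second run. Ctsd (cathepsin D, the main aspartic protease of the lysosome) was at 89.9, 107, 116 and 105 CPM in WT and at 73.3, 69.6, 75.8, 68.3 and 81.2 CPM in MFN2 72 to 76, a log2 fold change of -0.50 ± 0.07 (SE, FDR 0.000861). MFN2 libraries 41 to 43 had 116, 88.9 and 76.8 CPM, so that only library 41 lay within the WT range. Ctsz (cathepsin X, a carboxypeptidase) was at 17.2, 25.5, 26.4 and 20.7 CPM in WT, 27.3, 18.9 and 17.6 CPM in MFN2 41 to 43, and 15.2, 15.1, 13.8, 11.9 and 15.5 CPM in MFN2 72 to 76. It varied among WT libraries, yet all 5 second-run libraries lay below them, with a log2 fold change of -0.65 ± 0.12 (SE, FDR 0.00382). Tpp1, a tripeptidyl peptidase deficient in a form of neuronal ceroid lipofuscinosis, was at 50.7, 53.2, 54.2 and 52.7 CPM in WT, 54.9, 46.7 and 41.7 CPM in MFN2 41 to 43, and 36.9, 38.9, 43.4, 41.1 and 48.1 CPM in MFN2 72 to 76. The second-run libraries again lay below every WT library, with a log2 fold change of -0.34 ± 0.07 (SE, FDR 0.00531). The other 4 proteases did not pass, with log2 fold changes from -0.13 to 0.08.

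Among the glycan hydrolases Idua had the largest change, with a log2 fold change of -0.75 ± 0.11 (SE, FDR 0.000901) in the second run, a level 0.595 times that of WT. Glb1 had a log2 fold change of -0.48 ± 0.12 (SE, FDR 0.0139). Hexa, the alpha subunit of the hexosaminidase that degrades GM2 ganglioside, was at 27.8, 26.7, 27.9 and 27.3 CPM in WT, 31.0, 24.7 and 29.7 CPM in MFN2 41 to 43, and 20.2, 21.8, 18.4, 20.8 and 23.3 CPM in MFN2 72 to 76. Second-run libraries were below every WT library, with a log2 fold change of -0.39 ± 0.07 (SE, FDR 0.00253), and the first-run MFN2 libraries lay on both sides of the WT range. The other 8 glycan hydrolases did not pass, and their log2 fold changes ran from -0.27 to 0.01.

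The lipid and lumenal genes had the largest share of lower members in the second run, 6 of 9. In the single fit on all 12 libraries Arsa, Asah1, Galc and Npc2 were lost, and this ranking did not hold. Npc2, the lumenal protein that hands cholesterol to NPC1, was at 58.6, 62.9, 62.1 and 67.8 CPM in WT, 64.7, 48.3 and 26.5 CPM in MFN2 41 to 43, and 42.7, 48.6, 44.5, 48.0 and 59.9 CPM in MFN2 72 to 76. Library 76 was the one second-run library within the WT range, and the log2 fold change was -0.37 ± 0.09 (SE, FDR 0.0101). Arsa (arylsulfatase A, which degrades the myelin lipid sulfatide) was at 14.4, 14.0, 17.5 and 17.2 CPM in WT, 18.96, 12.8 and 15.5 CPM in MFN2 41 to 43, and 13.2, 9.93, 10.9, 13.8 and 13.8 CPM in MFN2 72 to 76. The second run and WT nearly touched, with a log2 fold change of -0.35 ± 0.11 (SE, FDR 0.0423), and the call held in 10 of 17 alternative fits. Galc (galactosylceramidase, which degrades the myelin lipid galactosylceramide) was at 29.6, 32.97, 29.8 and 36.9 CPM in WT, 29.0, 31.5 and 19.4 CPM in MFN2 41 to 43, and 24.1, 26.4, 26.6, 26.1 and 27.9 CPM in MFN2 72 to 76. The second-run libraries were below every WT library, with a log2 fold change of -0.30 ± 0.07 (SE, FDR 0.0134). The remaining lower genes were Asah1 (acid ceramidase), Smpd1 (acid sphingomyelinase) and Psap, with log2 fold changes of -0.25, -0.23 and -0.26. Lipa, Ppt1 and Grn did not pass. Of 6 oligodendrocyte markers, 0 passed in this comparison, where 23.5% of all genes tested did so.

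Tfeb (chr17:47737030-47792419, plus strand) was at 21.6, 29.4, 26.3 and 27.7 CPM in WT, 28.3, 22.7 and 10.7 CPM in MFN2 41 to 43, and 19.4, 25.2, 18.99, 19.5 and 22.4 CPM in MFN2 72 to 76. The second-run values overlapped those of WT in 2 of 5 libraries. The log2 fold change was -0.31 ± 0.10 (SE, FDR 0.0447), and the call held in 7 of 17 alternative fits. Tfe3 was at 24.1, 22.7, 22.8 and 22.2 CPM in WT, 23.995, 25.1 and 23.6 CPM in MFN2 41 to 43, and 24.1, 22.4, 23.1, 22.4 and 22.1 CPM in MFN2 72 to 76. The groups overlapped and differed by less than their spread, with a log2 fold change of -0.01 ± 0.06 (SE, FDR 0.957) that turned above 0 under other scalings. Of the 15 genes with CACGTG in the promoter window, 3 (Arsa, Ctsd and Glb1) were lower in the second run, and of the 26 genes without these letters 15 were lower, where 12.2% of all genes tested were lower. The median log2 fold changes of the groups with and without the motif were -0.13 and -0.21, a difference that was not tested.

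The V-ATPase genes were split. Atp6v0c, the proteolipid that forms the proton-carrying ring, was at 45.01, 29.2, 32.2 and 31.6 CPM in WT, 37.2, 29.5 and 60.9 CPM in MFN2 41 to 43, and 23.8, 21.5, 23.3, 24.2 and 20.3 CPM in MFN2 72 to 76. All second-run libraries were below WT, with a log2 fold change of -0.61 ± 0.12 (SE, FDR 0.00411). Its counts are uncertain because processed pseudogenes share its sequence, and Atp6v0c-ps2, examined after the values were seen, was at 13.1 to 15.9 CPM in 7 libraries and at 0.458 to 1.18 CPM in the other 5 (41, 42, 43, 44 and 72). The sum of both was 43.5 to 48.0 CPM in WT and 24.5 to 40.1 CPM in MFN2 72 to 76, again without overlap, while MFN2 41 to 43 had 37.7, 30.4 and 62.1 CPM, on both sides of WT. The accessory proteins Atp6ap1 and Atp6ap2, the latter also called the prorenin receptor, were lower by smaller amounts. Atp6ap1 was at 131, 123, 143 and 125 CPM in WT, 125, 117 and 146 CPM in MFN2 41 to 43, and 121, 109, 113, 110 and 116 CPM in MFN2 72 to 76, a log2 fold change of -0.20 ± 0.06 (SE, FDR 0.0257) in the second run. Atp6ap2 was at 88.9, 95.4, 102 and 98.7 CPM in WT, 102, 99.5 and 124 CPM in MFN2 41 to 43, and 89.0, 79.5, 87.7, 85.9 and 83.3 CPM in MFN2 72 to 76, a log2 fold change of -0.17 ± 0.05 (SE, FDR 0.0367). Library 72 alone of the second run reached the WT range of Atp6ap2, and library 43 held the highest value of both genes. Both calls were lost in several alternatives, as they held in 11 and 8 of 17 fits. None of the other 6 V-ATPase genes, which encode subunits of the V1 and V0 sectors, passed, with log2 fold changes from -0.01 to 0.16, and the summed level of all 9 was 1768 ± 91.7 CPM (SD, n = 4) in WT and 1783 ± 92.7 CPM (SD, n = 5) in the second run.

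**Figure D4:**
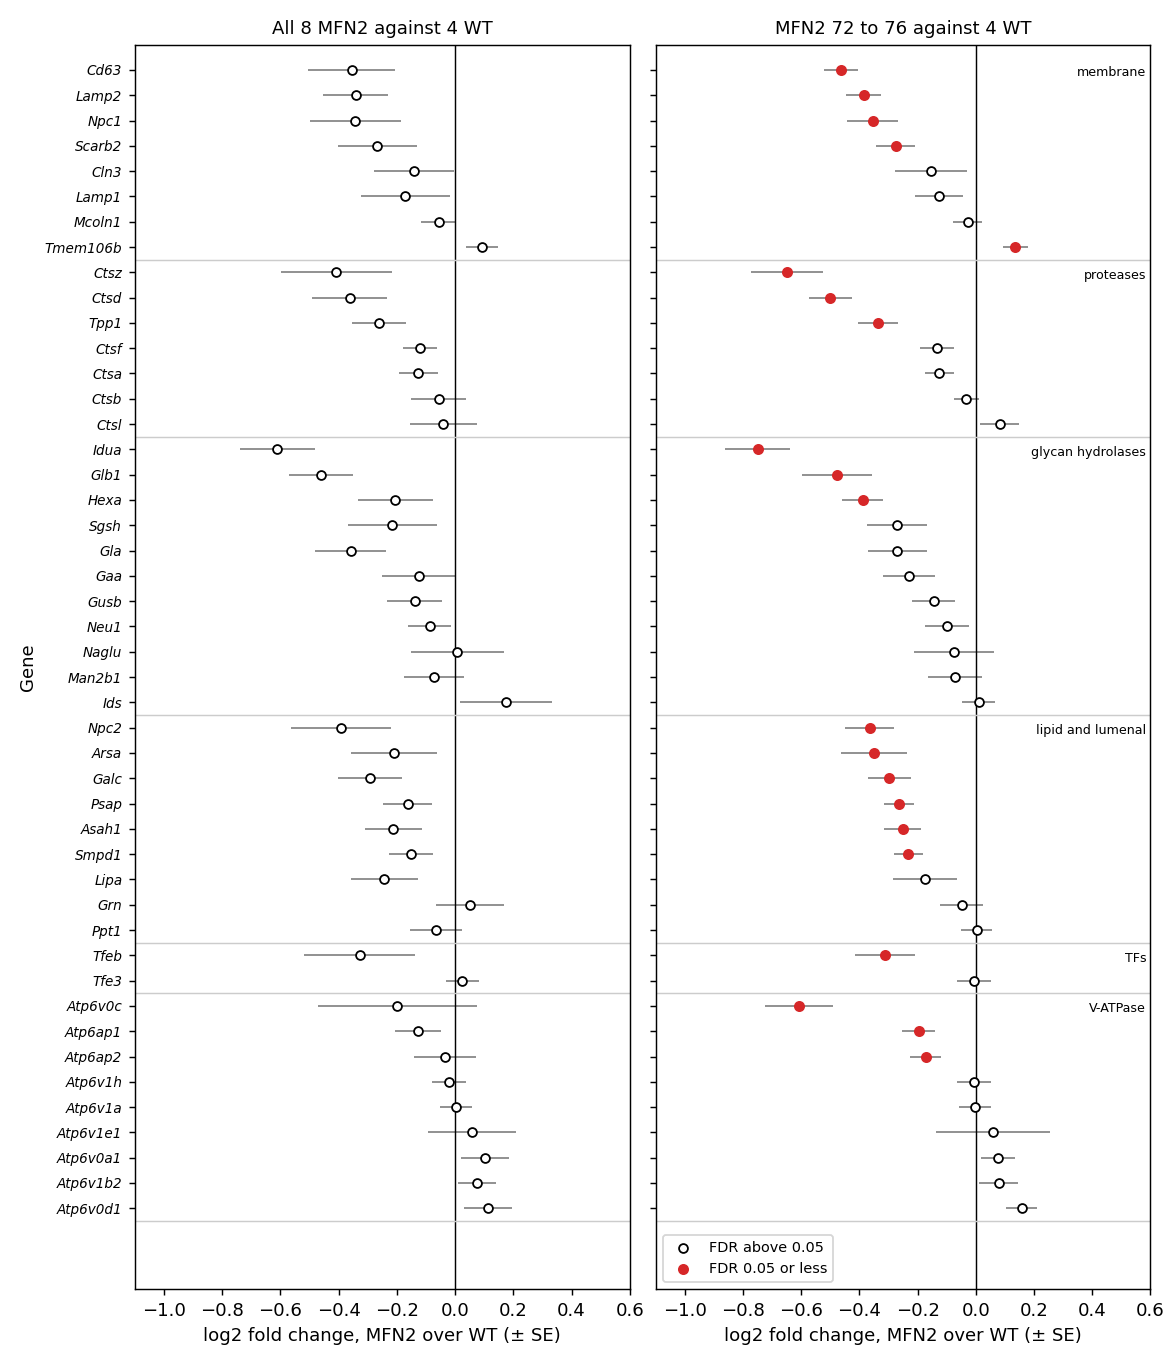
Log2 fold change ± SE of each lysosomal gene, MFN2 over WT, for all 8 MFN2 libraries (left) and for libraries 72 to 76 (right), with filled red points for an FDR of 0.05 or less. No gene passed on the left and 21 passed on the right, of which Tmem106b was the single one above 0.

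Within the first run of numbers, where both genotypes are present, MFN2 libraries 41 to 43 against the same 4 WT libraries gave 0 of 46 lysosomal genes in edgeR, and 1 of all genes tested (0.00627%). At an unadjusted p under 0.05 there were 5 lysosomal genes, all lower, where 7.2% of all genes passed and 1.85% were lower. With DESeq2 0 of 46 passed the threshold, and 4 of all genes tested (0.0251%). The log2 fold change of Idua was -0.38 ± 0.12 (SE, FDR 0.635) and that of Glb1 was -0.41 ± 0.14 (SE, FDR 0.635). Idua and Glb1, together with Gla and Lipa, were the 4 members whose 3 first-run libraries were below every WT library, where 4.28% of all genes were, and Ids was the 1 member above every WT library, where 4.53% were. Of the 20 genes that were lower in the second run, 14 also had a log2 fold change below 0 here, where 50.3% of all genes tested did. The 4 WT libraries are shared with the second-run comparison. This comparison has 3 MFN2 libraries, library 43 among them, which limits how many genes can pass. The SE of Lamp1, for example, was 0.23 here and 0.08 in the second run. V-ATPase genes were above 0 in 8 of 9 cases, where 50.3% of all genes tested were below 0. Of these 9 genes, 0 had an unadjusted p under 0.05.

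Library 43 weighed on these first-run values. Of all 12 libraries it had the lowest level of 19 of the 46 genes, 7 of the 8 membrane genes among them, and the highest level of 8 genes, 5 of the 9 V-ATPase genes among them. Ids, the iduronate sulfatase, was at 400 CPM in library 43 and between 197 and 242 CPM in the other libraries. Library 41 had the highest level of 14 genes and the lowest of none. Without library 43, the median log2 fold change of the 46 genes in the first run was -0.021, against -0.075 with it, and without library 41 it was -0.18.

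The direct comparison of the runs of numbers within the MFN2 genotype, libraries 72 to 76 against 41 to 43, gave 0 of 46 lysosomal genes in edgeR, where 2.29% of all genes passed, 1.15% higher and 1.14% lower, and 12 of 46 at an unadjusted p under 0.05, 11 lower and 1 higher, where 24.5% of all genes did so. In 6 of 46 genes all second-run libraries lay below the first-run ones, as in 8.59% of all genes, and in 1 above them, as in 9.62%. With DESeq2, 5 of 46 passed, among 11.1% of all genes. Leaving out library 43 turned this into 11 of 46, 10 lower and 1 higher in the second run, where 14.6% of all genes passed, and the count was also 11 without libraries 43 and 73, where 11.6% of all genes passed. They included Lamp2, Cd63, Ctsd, Ctsz, Hexa, Psap, Atp6v0c and Atp6ap2. Idua and Glb1 were not among them, and their log2 fold changes between the runs with all 8 libraries were -0.36 ± 0.14 and -0.06 ± 0.13 (SE).

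A wider list of 87 other lysosomal genes was read from the same fits, of which 83 were tested. Over all 8 MFN2 libraries 0 passed in edgeR, 18 had an unadjusted p under 0.05, 17 of them lower, where 15% of all genes passed and 7.57% were lower at that p, and the median log2 fold change was -0.086, where that of all genes was 0.0038. In MFN2 72 to 76 against WT, 27 of the 83 were lower and 1 was higher, with a median of -0.12, where 12.2% of all genes were lower and 11.4% higher, with a median of 0.0045. By role, 12 of 24 hydrolases, 5 of 18 membrane proteins, 3 of 7 sorting genes, 3 of 9 positioning genes, 2 of 15 genes of mTORC1 and TFEB control, and 2 of 10 V-ATPase genes were lower. Among those that passed, the largest differences were those of Naaa, an acid amidase (-0.84 ± 0.17, SE), Aga, which cleaves the sugar-asparagine bond of glycoproteins (-0.75 ± 0.13), and Laptm5, a lysosomal membrane protein of blood-derived cells (-0.62 ± 0.08). They were followed by Plekhm2, which links lysosomes to kinesin (-0.45 ± 0.06), Sort1, the sorting receptor sortilin (-0.44 ± 0.07), Ctsk (-0.43 ± 0.12), Borcs6 of the BORC complex that moves lysosomes outward (-0.42 ± 0.09), and Nagpa, which uncovers the mannose 6-phosphate tag (-0.41 ± 0.09). Atp6v1d was the member of this list that was higher, at 0.21 ± 0.06 (SE, FDR 0.0252).

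Most of the cell type markers that were lower in MFN2 72 to 76 than in WT were those of microglia and astrocytes. In that comparison 23.5% of all genes tested passed, 12.2% lower and 11.4% higher, against which the counts below are to be read. Of 10 microglia markers, 7 were lower in MFN2 72 to 76 than in WT (Cx3cr1, P2ry12, Tmem119, Csf1r, C1qa, C1qb and C1qc), with a median log2 fold change of -0.42 over the 10. Their summed level was 142, 195, 172 and 168 CPM in WT, 233, 140 and 219 CPM in MFN2 41 to 43, and 122, 128, 121, 102 and 139 CPM in MFN2 72 to 76. Csf1r was the most abundant and none of the 10 was at 0. Of 6 astrocyte markers 4 were lower (Gfap, Aldh1l1, Slc1a2 and Gja1), with a median of -0.30. The sum of the 6, in which Slc1a2 was the most abundant, was 6774 to 7751 CPM in WT and 4963 to 6380 CPM in the second run. In MFN2 41 to 43 it was 8465, 5978 and 5761 CPM, so that libraries 42 and 43 also lay below every WT library. Neuron markers summed to 3767 to 4261 CPM in WT and 3620 to 4125 CPM in the second run, and 1 of 5, Syt1, was higher. Of the other lists given here, 1 of 4 endothelial markers (Cldn5) and 1 of 3 oligodendrocyte precursor markers (Olig2) were lower, 1 of 5 blood markers (Alas2) and 1 of the 7 forebrain neuron markers tested (Nrgn) were higher, and 0 of 6 motor neuron, 0 of 6 caudal cord and 0 of 4 meningeal fibroblast markers passed. In these whole-tissue samples fewer cells of a type and less RNA per cell cannot be told apart, and the part of cell composition in the lysosomal result was not tested.

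**Figure D5:**
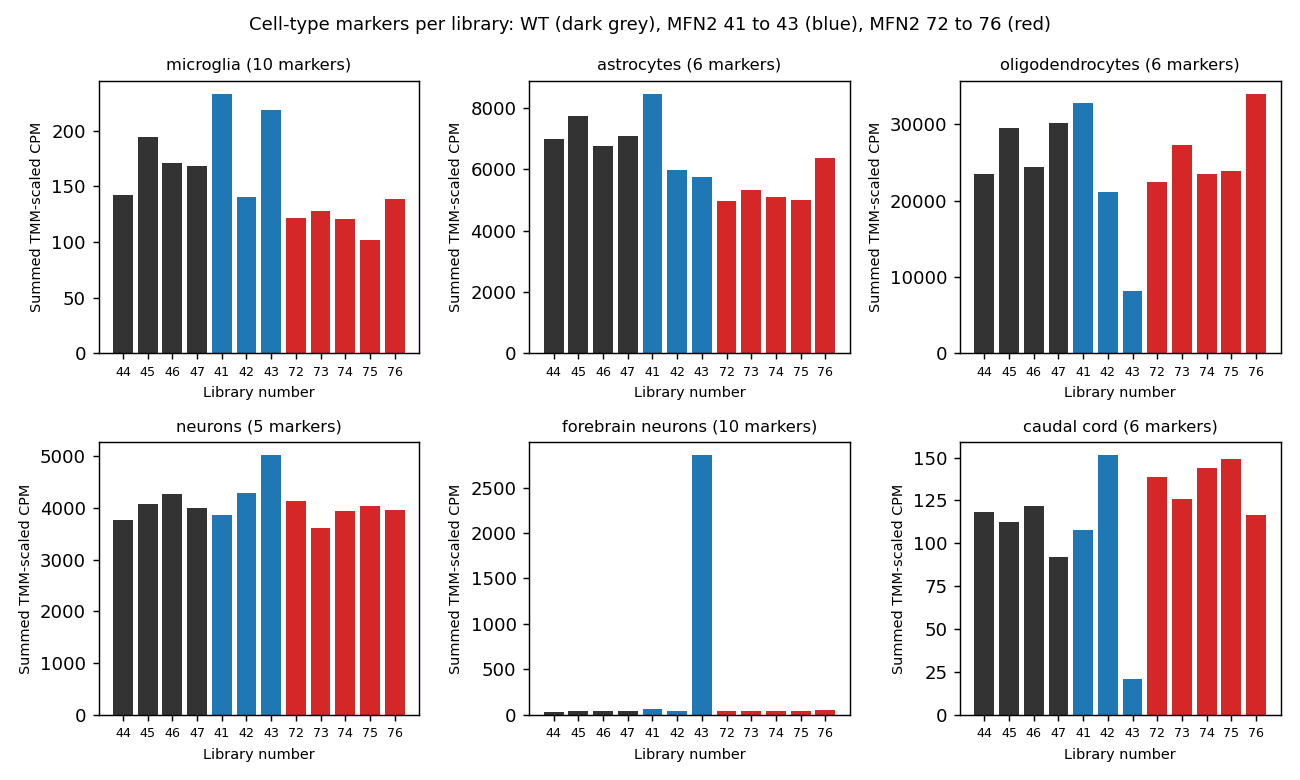
Summed CPM of 6 lists of cell type or region markers in each library (bars from 0), with WT in dark grey, MFN2 41 to 43 in blue and MFN2 72 to 76 in red. Microglia and astrocyte sums of libraries 72 to 76 lie below every WT library, and in library 43 forebrain neuron markers reach 2856 CPM and caudal cord markers fall to 21.1 CPM.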

How the data were processed

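RNA from lumbar spinal cord of 8 MFN2 and 4 WT mice was sequenced by the authors (SMARTer library kit, NextSeq 500, paired-end), and reads were aligned with STAR to GRCm38.p6. How reads were assigned to genes, and whether by strand, is not given in the sources used here. The deposited files hold raw read counts per Ensembl gene, 1 file a library. Here, 15942 genes with CPM above 1 in at least 3 libraries were kept. After TMM scaling, differences were assessed in edgeR 4.0.16 (R 4.3.3; legacy robust quasi-likelihood test, prior count 2, Benjamini-Hochberg FDR of 0.05), each comparison fitted on its own libraries. Standard errors were derived from the test statistic. DESeq2 1.42.0, other scalings and filters, a 3-group fit and fits leaving out libraries were the alternatives. RPKM used summed exon lengths of GENCODE annotation, and promoter sequences were taken from RefSeq. Named genes were Lamp1, Lamp2, Tfeb, Tfe3 and, per role and direction, up to 3 past the threshold with the largest changes. No pair of libraries within a genotype was a duplicate, as the lowest chi-square per degree of freedom was 5.34. Pairs of an MFN2 and a WT library were not compared. The members and lists were chosen with earlier results of these data known. The scripts were tested on simulated data. One marker list, by which libraries 43 and 73 also stood apart, is not reported here.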

Additional observations from a re-analysis of the deposited data

Results flagged for a closer look

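In 15 of 116 groups of libraries examined (8 MFN2 or 4 WT libraries, each for 1 gene or 1 marker sum), 1 library stood apart, its gap to the nearest library being a larger share of the group's whole range than Dixon's 95% limit allows. Chance would give about 5.8 of them, or 1 in 20 groups, and 7 came from library 43 and 5 from library 41. In library 43, Ctsb was low (261 CPM, gap share 0.573), while Ids (400 CPM, 0.775), Atp6v0c (60.9 CPM, 0.583) and Atp6ap1 (146 CPM, 0.551) were high. The marker sums of the same library were high for forebrain neurons (2856 CPM, 0.993) and neurons (5016 CPM, 0.528) and low for caudal cord (21.1 CPM, 0.667). In library 41, Cd63 (62.8 CPM, 0.528), Ctsd (116 CPM, 0.566), Ctsz (27.3 CPM, 0.543), Naglu (7.97 CPM, 0.568) and the astrocyte marker sum (8465 CPM, 0.595) were high. In library 75, Atp6v1e1 was low (104 CPM, 0.639), in library 73 the blood marker sum was high (333 CPM, 0.671), and in WT library 47 Ctsf was low (0.867). The causes were not tested.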

How the results depend on the processing

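The count of lysosomal genes past the threshold changed without library 43, with DESeq2 and in the 3-group fit. For all 8 MFN2 libraries it was 0, 2 with DESeq2, and 0 to 1 when leaving out 1 library. For MFN2 72 to 76 against WT it was 21, 8 in the 3-group fit (7.68% of all genes), and 16 to 23 leaving out 1 library (14.8% to 28.3%); 8 genes passed in all 17 alternatives (Ctsd, Ctsz, Tpp1, Hexa, Glb1, Idua, Smpd1 and Psap). For MFN2 72 to 76 against 41 to 43 it was 0, 5 with DESeq2 (11.1% of all genes), 4 in the 3-group fit (8.4%), 11 without libraries 43 and 73 (11.6%; chosen after seeing the data), and 0 to 11 leaving out 1 library (0.163% to 14.6%); there the median turned from -0.055 to 0.0045 with library-size scaling. Signs of small log2 fold changes also turned. For all 8, Atp6ap2 was 0.013 with library-size scaling. With the run of numbers as a covariate Hexa was 0.056, Arsa 0.0033, Atp6v0c 0.30 and Atp6ap2 0.17. The second run holds no WT library, so in that fit the genotype term rests on MFN2 41 to 43 against WT alone. Those values are therefore not estimates over all 8. For 72 to 76 against WT, Tfe3 was 0.011 with upper-quartile and 0.059 with library-size scaling, and -0.029 to 0.012 leaving out 1 library. For 41 to 43 against WT, Atp6ap1 was -0.011 with no filter, -0.025 with upper-quartile scaling and -0.013 in the 3-group fit, and Arsa was -0.0092 with upper-quartile scaling; leaving out 1 library gave Lamp1 -0.51 to 0.008, Cd63 -0.45 to 0.049, Ctsz -0.27 to 0.054, Arsa -0.13 to 0.14, Atp6v0c -0.04 to 0.52 and Atp6ap1 -0.094 to 0.066. For 72 to 76 against 41 to 43, Galc was 0.0074 with upper-quartile scaling and 0.024 with library-size scaling, Npc1 was 0.011 with the latter, and without libraries 43 and 73 Lamp1 was -0.13, Tfeb -0.35, Glb1 0.0087 and Npc2 -0.22; leaving out 1 library gave Lamp1 -0.13 to 0.37, Lamp2 -0.31 to 0.011, Tfeb -0.28 to 0.31, Npc1 -0.29 to 0.21, Galc -0.21 to 0.093 and Npc2 -0.22 to 0.35. Apart from the covariate fit, where the design sets which libraries count, the cause was not tested for any of them. No paired analysis was possible because no number is shared between an MFN2 and a WT library. Low counts may limit the precision for genes such as Cln3 and Naglu, whose WT means were 5.35 and 5.45 CPM, which was not tested.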
